A study of Mus musculus with 4 samples.

Results

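Sinusoidal bone marrow endothelial cells (ECs), the lining of the wide and leaky vessels that drain the marrow, were examined in 4 droplet-based single-cell RNA libraries of mouse long bone. They were chosen by the messages they held. A barcode counted as a cell with at least 1000 unique molecular identifiers (UMIs, single captured RNA molecules) and 800 genes, with under 15% mitochondrial and under 5% hemoglobin UMIs. An EC had at least 1 UMI of *Cdh5*, at least 3 of *Cdh5*, *Pecam1* and *Egfl7* together and none of the leukocyte gene *Ptprc*. A sinusoidal EC had, in addition, at least 1 UMI of *Stab2*, at least 3 of *Stab2*, *Flt4* and *Mrc1* together and none of the arterial gene *Sema3g*. This gave 745 sinusoidal ECs among 2904 ECs and 24739 cells, 83 and 100 in the mutant libraries and 282 and 280 in the control libraries. Because *Stab2*, *Flt4* and *Mrc1* chose these cells, their levels in them are a description, and so is every comparison of levels between sinusoidal and other ECs.

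The mutants (Lats2iECKO) carried floxed *Lats2* alleles and the transgene *Cdh5*-CreERT2, in which the promoter of the pan-endothelial gene *Cdh5* drives a tamoxifen-dependent Cre recombinase, so recombination was not limited to sinusoids or to bone. Controls were Cre-negative littermates. Mice of both genotypes received tamoxifen according to the methods of the study, although the sample labels describe the controls as untreated, and all were 12 weeks old at analysis. Metaphyses of femur and tibia were digested with collagenase and depleted of blood lineage cells, of CD45+ and of CD117+ cells, so the libraries hold what survived digestion and depletion. Each genotype had 2 libraries, labelled as replicates. How many animals went into a library is not given in the sources used here, and p-values measure the spread between these libraries.

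Sinusoidal ECs form a fenestrated wall with an incomplete basement membrane, through which maturing blood cells leave the marrow. They take up waste from the blood with scavenger receptors such as the stabilins and the mannose receptor, and they carry VEGFR3, the receptor encoded by *Flt4*. LATS2 is a kinase of the Hippo pathway. It phosphorylates YAP1 and TAZ, which are then held in the cytoplasm, whereas unphosphorylated YAP1 and TAZ enter the nucleus and activate genes with TEAD transcription factors.

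The libraries held 69636600 to 85899079 UMIs and 5133 to 6868 cells each. The sinusoidal ECs of a library summed to between 873802 and 2745768 UMIs. Their median depth was 8423 and 7796 UMIs in the mutant libraries and 6974 and 7170 in the control libraries, so mutant cells were read somewhat deeper. No cell barcode of a sinusoidal EC occurred in more than 1 library. Levels are given as CPM, the UMIs of a gene per 1000000 UMIs summed over the sinusoidal ECs of a library. They are not divided by gene length, and the levels of different genes are not compared.

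The members carried the markers of their label, including those that the gate did not use. *Gpm6a*, a neuronal-type membrane glycoprotein also found on sinusoids, stood at 508 and 487 CPM in the mutant libraries and 659.5 and 636 CPM in the control libraries, compared with 69.03 and 58.8 CPM and 51.8 and 62.2 CPM in the other ECs. *Stab1*, the partner of *Stab2* among the stabilins, was found at 364 and 343 CPM in mutants and 589.8 and 514 CPM in controls, with 104 and 117 CPM and 162 and 145 CPM in the other ECs. Both were thus higher in sinusoidal than in other ECs of each library. Of the gate genes, *Stab2* reached 2407 and 1935 CPM in mutants and 2453 and 2412 CPM in controls. *Mrc1*, the mannose receptor, lay at 460.1 and 416 CPM and 756 and 692 CPM, and *Flt4* at 327 and 282 CPM and 456 and 431 CPM. Each of these 3 genes was lower in both mutant libraries than in both control libraries, which is stated without a test. At the edge of the gate, 6 and 2 mutant and 7 and 7 control members had exactly 3 UMIs of the gate genes, whereas 16 and 15 mutant and 12 and 9 control ECs had a *Stab2* UMI but fewer than 3 in all. *Stab1* stood at 267 and 0 CPM in those mutant cells just inside and at 104 and 112 CPM in those just outside, and at 327 and 239 CPM against 178 and 91.0 CPM in the controls. *Gpm6a* stood at 48.6 and 0 CPM just inside and 69.6 and 41.2 CPM just outside in mutants, and at 102 and 18.4 CPM against 47.6 and 24.8 CPM in controls, so that it was lower just inside in 3 of the 4 libraries.

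**Figure D1:**
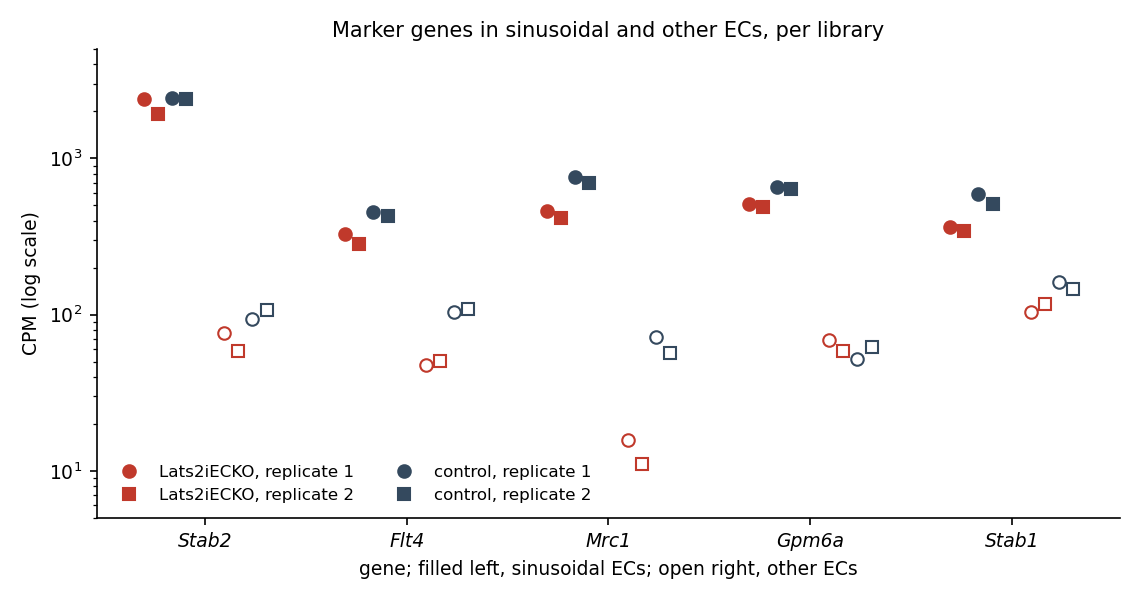
Levels (CPM, log scale) of 5 marker genes in each of the 4 libraries, with filled symbols for sinusoidal ECs and open symbols for the other ECs, red for Lats2iECKO and dark blue for control. *Stab2*, *Flt4* and *Mrc1* were used to choose the cells. *Gpm6a* and *Stab1* were not, and lie higher in sinusoidal than in other ECs of every library.

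Lymphatic and macrophage messages, which share *Flt4*, *Mrc1* or *Stab1* with sinusoids, were scarce. The 4 lymphatic markers summed to 37.8 and 16.9 CPM in mutants and 14.02 and 12.02 CPM in controls, with *Ccl21a* at 0 in all libraries. Most of these sums was *Prox1*, at 36.6 and 16.9 CPM in mutants and 10.9 and 7.65 CPM in controls, so it was higher in both mutant libraries. In the other ECs *Prox1* was at 8.39 and 8.60 CPM in mutants and 4.18 and 6.94 CPM in controls. The 8 macrophage markers summed to 18.3 and 13.5 CPM in mutants and 14.02 and 56.8 CPM in controls, with *Adgre1* at 0. Osteoblast messages were present and uneven. The 4 osteoblast markers summed to 558 and 1424 CPM in mutants and 2880 and 6389 CPM in controls, and the 3 megakaryocyte markers to 33.2 and 19.4 CPM and to 219 and 441 CPM. They came largely from few barcodes. When members with over 0.5% of their UMIs on markers of other lineages were left out (3 and 4 in mutants, 18 and 23 in controls), the osteoblast sums were 174 and 337 CPM in mutants and 541 and 616 CPM in controls, and the megakaryocyte sums 35.3 and 19.8 CPM and 35.0 and 37.7 CPM. Erythroid markers summed to 538 and 523 CPM in mutants and 385 and 383 CPM in controls, and smooth muscle markers to 67.5 and 253 CPM and to 7.01 and 45.5 CPM, both sums higher in mutants. Single markers were not alike. The smooth muscle gap lay in *Rgs5*, at 61.8 and 223 CPM in mutants and 2.73 and 6.56 CPM in controls, while *Myh11* and *Acta2* overlapped. *Hbb-bs* and *Hba-a2* were higher in both mutant libraries than in both controls, and *Hba-a1* was lower. Without the same members the erythroid sums were 558 and 552 CPM in mutants and 209.9 and 276 CPM in controls, and the smooth muscle sums 71.8 and 79.1 CPM and 5.25 and 13.3 CPM, so that the genotypes lay further apart in ratio, and the part of these messages in the results was not tested. A search against simulated pairs of cells marked 5 and 11 mutant and 21 and 32 control members as doublets. Where a result for a named gene did not hold without these barcodes, both values are given.

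Sinusoidal ECs made up a smaller part of the ECs in mutants. Their share was 15.1% (95% exact binomial interval 12.2 to 18.4%) and 14.7% (12.1 to 17.6%) in the mutant libraries and 33.5% (30.3 to 36.8%) in each of the control libraries. The mutant libraries lay close together and well below both controls. The means were 14.9% ± 0.311 (SD, n = 2) and 33.5% ± 0.00101 (SD, n = 2), and the control share was 2.25 times the mutant share. An exact permutation test over libraries gave p = 0.333 (2-sided), the smallest value that 2 against 2 libraries allow. Of all cells, sinusoidal ECs were 1.62% and 1.70% in mutants and 4.11% and 4.09% in controls. The intervals cover counting error only.

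The share was smaller in mutants under the other gates tried. Without *Mrc1* in the gate the mutant libraries had 14.8% and 14.4% and the control libraries 32.3% and 32.8%, and after thinning each cell to 3000 UMIs it was 14.9% and 13.1% against 33.8% and 34.8%. A gate on *Stab1* and *Gpm6a* in place of *Stab2*, *Flt4* and *Mrc1* chose 14.96% and 14.4% of the ECs in mutants and 24.3% and 24.9% in controls, a narrower gap. That gate took partly different cells. In controls 90.7% and 93.8% of the cells it chose were also members by the *Stab2* gate, and in mutants 58.5% and 62.2%. Over the sums of all ECs, the markers that the gate did not use fell, *Gpm6a* from 279 and 294 CPM in controls to 137 and 131 CPM in mutants (log2 fold change -1.03, SE 0.07, edgeR adjusted p = 2.61e-08) and *Stab1* by 0.98 on the log2 scale (adjusted p = 7.99e-08, edgeR). As both genes were higher in members than in other ECs, these sums reflect the share too and are no separate support for it. The gate genes *Mrc1*, *Flt4* and *Stab2* had log2 fold changes of -1.90, -1.33 and -1.25 in these sums, which restate the share and are given without a test. In such sums fewer sinusoidal cells and less RNA per cell cannot be told apart.

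**Figure D2:**
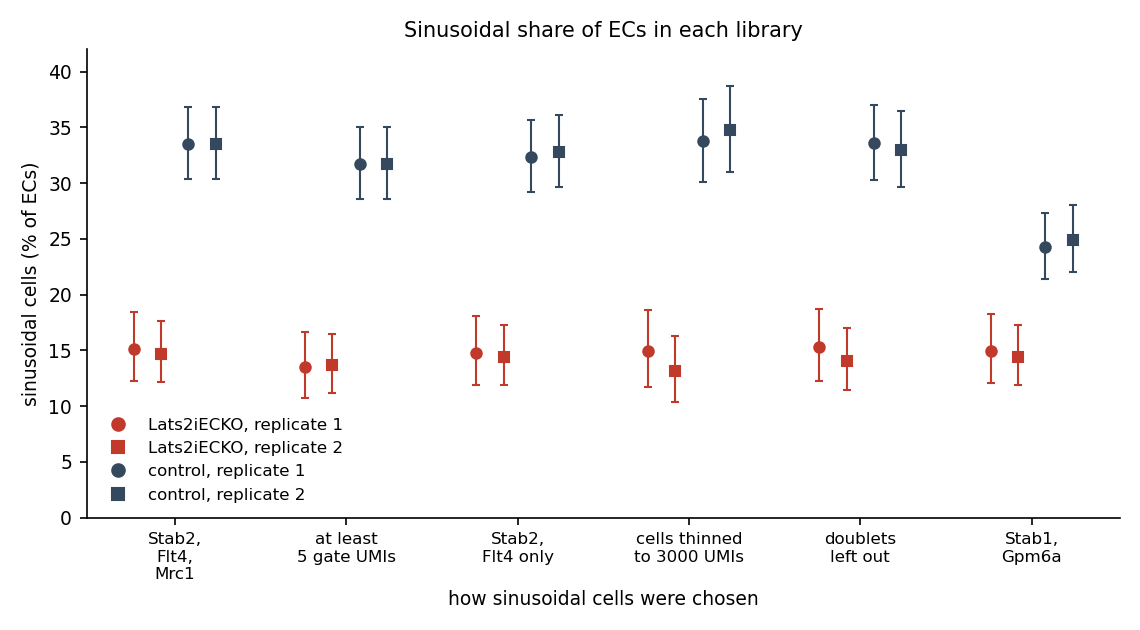
Sinusoidal ECs as a percentage of all ECs in each of the 4 libraries (red, Lats2iECKO; dark blue, control; circles, replicate 1; squares, replicate 2) under 6 ways of choosing them, with 95% exact binomial intervals. Both mutant libraries lie below both control libraries under each of them, and the gap is narrowest with *Stab1* and *Gpm6a*, where the controls are at 24.3% and 24.9%.

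The genes that set control sinusoidal ECs apart from the other control ECs, chosen by their ratio in both control libraries, included *Sema3a*, a repulsive guidance factor, at 407 and 436 CPM compared with 8.12 and 15.4 CPM in other ECs, and *Adamts5*, a protease that cleaves aggrecan, at 1037 and 1108 CPM compared with 35.3 and 49.8 CPM. They were followed by *Stab2*, *Cxadr*, *Lipg*, *Il13ra2*, *Ubd*, *Clca3a1*, *Cdkl1*, *Rgs4*, *Dnase1l3*, *Adgrg6*, *Wdr17* and *Slc16a9*, with control ratios of 12.3 to 24.2. This part of the sinusoidal profile did not move as one between genotypes. *Lipg* (endothelial lipase), *Ubd* (a ubiquitin-like modifier) and *Clca3a1* overlapped between genotypes, with log2 fold changes of 0.12, -0.04 and 0.06. *Sema3a* was at 225 and 159.7 CPM in mutants and 407 and 436 CPM in controls, and fell by 1.09 on the log2 scale (SE 0.15, edgeR adjusted p = 0.000584). *Il13ra2*, a decoy receptor for interleukin 13, was at 82.4 and 70.1 CPM in mutants and 194 and 170.1 CPM in controls (log2 fold change -1.21, adjusted p = 0.000222, edgeR). *Adamts5* (-0.81), *Dnase1l3*, a secreted DNase (-0.97), and *Slc16a9*, a carnitine transporter (-1.14), fell too, with edgeR adjusted p of 0.000829, 0.00371 and 0.00616. *Cxadr*, the coxsackie and adenovirus receptor (0.95), *Cdkl1* (0.83) and *Rgs4*, a regulator of G protein signalling (0.72), rose, with edgeR adjusted p of 0.00462, 0.00197 and 0.00436. *Adgrg6* (-0.33, adjusted p = 0.0771) and *Wdr17* (-0.22, adjusted p = 0.276) did not pass the edgeR test. The control libraries helped to choose these genes, so the number that fell is no measure of the profile as a whole.

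Between genotypes, 6550 genes of the sinusoidal ECs could be tested. A gene was called when the Benjamini-Hochberg adjusted p of edgeR's quasi-likelihood test was at most 0.05 and the log2 fold change at least 1 in size. By this rule 141 genes were higher in mutants (2.15% of those tested) and 90 lower (1.37%). Without the first mutant library 144 genes were lower. In 140 of the 141 and in all 90 the libraries of the genotypes did not overlap. A gene past both thresholds with 2 libraries per genotype nearly always meets this, so it adds no support. The share of all tested genes without overlap was not counted. Where non-overlap is stated for single genes below, called or not, it is a description and no support either. By the adjusted p alone 593 genes rose (9.05%) and 574 fell (8.76%), and these shares stand beside the counts for gene lists given next. The median log2 fold change of all tested genes was 0.01. A gene was tested if 20% or more of the cells of either genotype held it, so a gene held by fewer cells of the other genotype entered through the genotype in which it was more often found. That was so for 86 of the 141 and 35 of the 90, and their presence among the tested genes is no support. A second fit therefore chose genes by the mean share of cells over both genotypes, at 10% or more, whichever genotype was higher. Of 8967 genes it called 191 higher and 131 lower, and by the adjusted p alone 542 rose (6.04%) and 496 fell (5.53%). Every gene that met the 20% in either genotype also meets this 10%, and the same counts were tested. Little but the adjustment could therefore change. All 86 and 33 of the 35 kept an adjusted p of at most 0.05 in it, which is no independent support. For each gene that met the 20% in 1 genotype alone, the log2 fold change, SE and adjusted p given are those of this second fit. For 15 of the 24 gene lists it left the numbers that rose and fell as they were, and for the others both are given. A test of this kind reads the sum of a library, so single cells can carry a gene: in 11 of the 141 genes called higher, 5 mutant cells held over 50% of all mutant UMIs, and in 14 of the 90 called lower 5 control cells held over 50% of the control UMIs.

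UMIs of the transgene were far more frequent in mutants. Cre-ERT2 stood at 42.3 and 29.6 CPM in the sinusoidal ECs of the mutant libraries, where 39 of 183 cells held a UMI. None of the 562 control sinusoidal ECs held one, which allows up to 0.534% of cells with a UMI. The other ECs had 51.8 and 48.5 CPM in mutants and a trace of 1.39 and 1.24 CPM in the control libraries. *Lats2* itself was at 81.3 and 97.99 CPM in mutants and 101 and 95.4 CPM in controls. These ranges overlapped, with a log2 fold change of -0.06 (SE 0.15, edgeR adjusted p = 0.805), and the sign turned to 0.05 without the first mutant library. In the other ECs *Lats2* fell (-0.47, edgeR adjusted p = 0.000532), as it did over all ECs (-0.32, adjusted p = 0.00174), while the interaction with cell class did not pass (0.40, adjusted p = 0.330). The counts cover the exons and introns of the whole gene and were read from the 3′ end, so a message without floxed exons may still be counted. Where the floxed exons lie was not examined, and this level does not check the deletion. The study describes a strong loss of *Lats2* RNA and protein in the bone endothelium of mutants. It shows the RNA in EC subpopulations of its single-cell data, scaled per gene, so for RNA this is no evidence independent of these libraries. *Lats1*, the related kinase, was at 25.2 and 28.7 CPM in mutants and 38.9 and 34.96 CPM in controls (log2 fold change -0.38, edgeR adjusted p = 0.228).

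Of 22 known targets of YAP1 and TAZ, 12 were tested, of which 5 rose and 1 fell, and their median log2 fold change was 0.57. In the second fit, 5 of 14 rose and none fell. *Ccn1*, a secreted matricellular protein, was at 399 and 416 CPM in mutants and 101 and 119.8 CPM in controls. *Ccn2*, its relative and a factor of fibrosis, was at 428 and 459.6 CPM in mutants and 94.2 and 123 CPM in controls. For both genes each mutant library lay more than 3 times above each control library. Their log2 fold changes were 1.94 (SE 0.13, adjusted p = 2.53e-06) and 2.08 (SE 0.15, adjusted p = 2.99e-06) by edgeR. *Amotl2*, an adaptor that binds YAP1, rose by less, from 54.9 and 54.6 CPM in controls to 91.6 and 108 CPM in mutants (log2 fold change 0.93, edgeR adjusted p = 0.00211), as did *Crim1*, a transmembrane BMP antagonist (0.67, adjusted p = 0.00348). *Igfbp3*, which binds insulin-like growth factors, was at 64.1 and 133 CPM in mutants and 44.4 and 40.1 CPM in controls (log2 fold change 1.31, edgeR adjusted p = 0.00825). It rested on few cells, as 5 cells held 53.99% of its mutant UMIs, and it did not pass without the second mutant library (0.64, edgeR adjusted p = 0.0724) or under the *Stab1* and *Gpm6a* gate (adjusted p = 0.122). *Ptpn14*, a phosphatase that restrains YAP1, was at 59.5 and 65.9 CPM in mutants and 96.6 and 88.5 CPM in controls (log2 fold change -0.50, edgeR adjusted p = 0.0453), but did not pass when any 1 library was left out (edgeR adjusted p from 0.0522 to 0.248), with DESeq2 (0.229), in the second fit (0.0702) or without other-lineage barcodes (0.0524), and was higher in mutants (0.50) under the *Stab1* and *Gpm6a* gate.

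YAP1 and TAZ reach DNA through TEAD factors, which bind the letters GGAATG or, read from the other strand, CATTCC. The stretch of 250 bases before the start of *Ccn1* is given, with these letters in capitals, because it is among the best known targets and rose here. The sequence is of the GRCm39 genome, chr3:145355739-145355988, 5′ to 3′ on the minus strand, which is that of the gene, and ends at the base before the start annotated by GENCODE.
Ccn1: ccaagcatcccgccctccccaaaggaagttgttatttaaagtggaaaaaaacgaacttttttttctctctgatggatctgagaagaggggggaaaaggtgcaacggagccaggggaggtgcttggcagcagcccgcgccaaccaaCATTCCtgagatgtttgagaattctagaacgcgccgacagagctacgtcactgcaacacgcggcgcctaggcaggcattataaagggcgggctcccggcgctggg
*Ccn1* held the motif 1 time, with its first base 105 bases before the start. Of all protein-coding genes, 12.1% had the motif in these 250 bases, as did 11.7% of the tested genes, 16.8% of those called higher and 12.99% of those called lower. Of the 22 listed targets 6 had it (27.3%). A match of letters is a description and no evidence of binding, and a window without one says only that these letters are not in it.

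Of 20 genes of the Hippo pathway itself 16 were tested, of which 5 fell and 1 rose, with a median log2 fold change of -0.39. In the second fit 3 fell and 1 rose. *Stk3*, the MST2 kinase that activates LATS1 and LATS2, was at 130.5 and 108 CPM in mutants and 218 and 205 CPM in controls (log2 fold change -0.78, edgeR adjusted p = 0.00211). *Wwtr1*, the gene of TAZ, was at 528 and 552 CPM in mutants and 402 and 349 CPM in controls and rose (log2 fold change 0.58, edgeR adjusted p = 0.00591). In both genes the libraries of the genotypes stood apart. The other 4 were the MST1 kinase *Stk4* (-0.99), the LATS cofactor *Mob1b* (-0.66), the TEAD repressor *Vgll4* (-0.48) and *Tead2* (-0.75), and *Mob1b* (-0.66, edgeR adjusted p = 0.0524) and *Tead2* (adjusted p = 0.0719) did not pass in the second fit. The first 3 did not pass when members with other-lineage UMIs were left out, with log2 fold changes of -0.69, -0.04 and -0.43 and edgeR adjusted p of 0.0575, 0.921 and 0.0629. Nor did they pass with DESeq2 (adjusted p = 0.0683, 0.174 and 0.116), *Stk4* without the second mutant library (edgeR adjusted p = 0.0666), *Mob1b* without the first (0.145) or without either control library (0.0819 and 0.0903), or *Vgll4* without the first control library (0.271).

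Of 18 listed immediate early genes, which cells switch on within minutes of a stimulus, 15 were tested, and 13 rose and none fell, with a median log2 fold change of 0.58. The median mitochondrial share of UMIs, a sign of RNA quality, stood apart by genotype too, at 4.72% and 5.04% in mutant and 4.43% and 4.22% in control sinusoidal ECs, and its part in these genes was not tested. *Fos*, a subunit of AP-1, was at 1048 and 1147 CPM in mutants and 529.9 and 589 CPM in controls (log2 fold change 1.03, edgeR adjusted p = 0.000196), and *Junb*, its partner, at 1171 and 1143 CPM and 689.5 and 659 CPM (0.83, adjusted p = 0.000412). *Atf3*, a stress-induced transcription factor, was at 118 and 104 CPM in mutants and 47.9 and 58.3 CPM in controls (log2 fold change 1.11, edgeR adjusted p = 0.000884). Neither genotype's libraries overlapped the other's in these 3 genes. They rose in the other ECs too, *Fos* by 1.15, *Junb* by 0.86 and *Atf3* by 1.17 on the log2 scale (edgeR adjusted p = 3.43e-07, 1.07e-05 and 5.95e-06), and cell-free RNA in the mutant libraries held more *Fos* (2060.1 CPM compared with 1005 CPM). Cell-free RNA was estimated as 1.44 to 2.26% of the UMIs of a member, the middle of 3 estimates per library that ranged from 0.914 to 3.66%. The estimates used osteoblast, chondrocyte and erythroid markers. They were made in members left after barcodes rich in other-lineage markers were removed, so they can be too low. At these middle values 139 of the 141 calls of higher genes held after subtraction, which a low estimate favors.

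Genes of glycolysis rose, with the largest median log2 fold change of the lists examined, 0.88. Of 16 genes 14 were tested, and 11 rose and none fell. *Tpi1*, which interconverts the triose phosphates, was at 144 and 144 CPM in mutants and 47.9 and 56.1 CPM in controls (log2 fold change 1.52, SE 0.15, edgeR adjusted p = 5.99e-05). *Aldoa*, the aldolase of the pathway, was at 217 and 248 CPM in mutants and 109.8 and 129.7 CPM in controls (1.02, adjusted p = 0.000486, edgeR). *Pgk1* (1.21), *Eno1* (1.01) and *Gapdh* (1.01) were called as well, with edgeR adjusted p of 0.000875, 0.00132 and 0.000217. The same genes rose in the other ECs, *Tpi1* by 1.49, *Pgk1* by 1.72 and *Gapdh* by 1.31 on the log2 scale, and no interaction of genotype and cell class was called for them. Cell-free RNA held more of them in mutants too, with *Tpi1* at 401 CPM compared with 143 CPM in controls and *Pgk1* at 404 CPM compared with 104 CPM. With the middle estimate of free RNA subtracted, which as said above can be too low, the median of glycolysis genes was 0.86. The mitochondrial share, given above, differed by genotype as well, and its part was not tested. These genes belong to families with many processed copies in the genome, among which reads that fitted several genes were shared out, so single levels are uncertain. *Pgk1* did not pass when the gates were set on thinned cells (log2 fold change 0.33, edgeR adjusted p = 0.329).

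**Figure D3:**
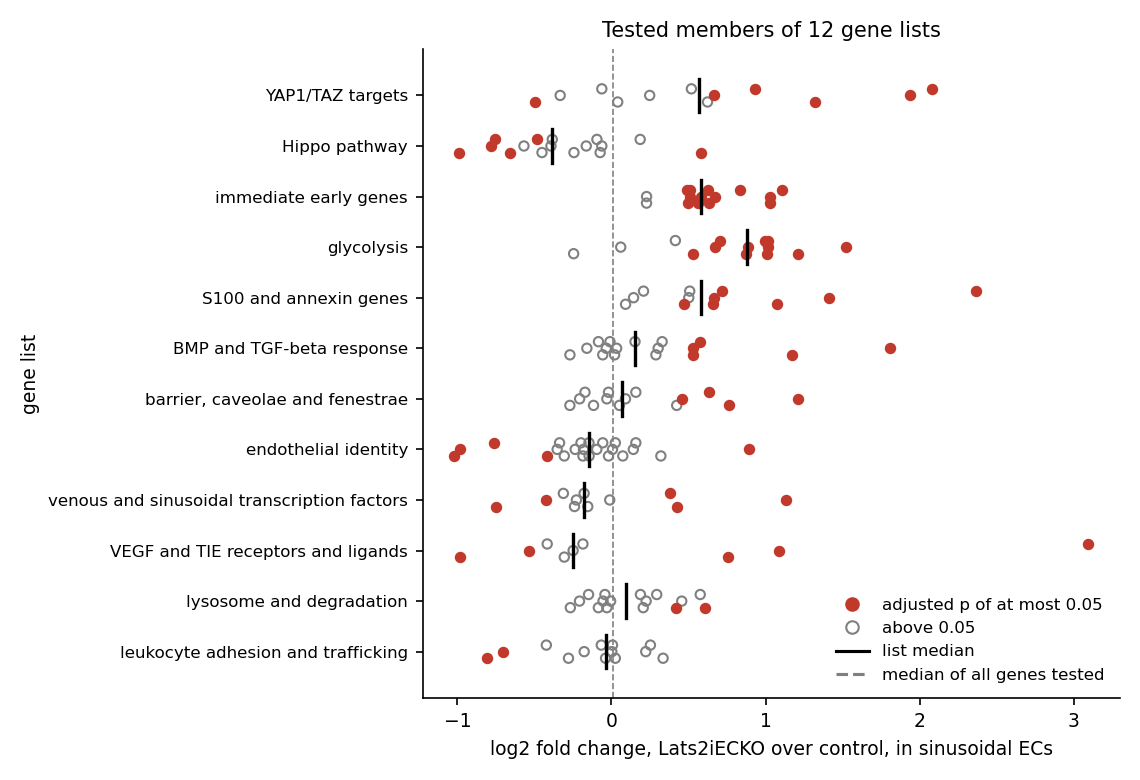
Log2 fold change (Lats2iECKO over control) in sinusoidal ECs for the tested members of 12 gene lists, 1 symbol per gene. Red symbols have an edgeR adjusted p of at most 0.05, open symbols do not, black bars are list medians and the broken line is the median of all tested genes (0.01). Glycolysis, with a median of 0.88, and immediate early genes, with 0.58, lie to the right, and the Hippo pathway, with -0.39, to the left.

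Of 16 genes of VEGF, TIE and PDGF signalling 9 were tested, 3 rose and 2 fell (4 and 2 of 12 in the second fit), and the apelin pair is given beside them. *Angpt2*, the antagonist ligand of the receptor TIE2, was at 92.7 and 85.3 CPM in mutants and 12.1 and 9.47 CPM in controls, every mutant library more than 7 times above every control library. Its log2 fold change was 3.10 (SE 0.21, edgeR adjusted p = 4.76e-06). It was detected in 28.9% and 30% of mutant and in 8.51% and 6.43% of control sinusoidal ECs, while leukocytes, which should lack it and were read deeper (medians of 9986 to 13008 UMIs), held it in 9.76% and 19.6% of mutant and 5.45% and 5.94% of control cells. With each cell thinned to 3000 UMIs these shares were 12.99% and 13.4% against 3.75% and 2.25% in sinusoidal ECs, and 2.56% and 2.22% against 1.98% and 1.10% in leukocytes. *Tek*, which encodes TIE2, was at 274 and 205 CPM in mutants and 517 and 461 CPM in controls and fell by 0.98 on the log2 scale (SE 0.14, edgeR adjusted p = 0.000731). *Apln*, the peptide apelin of sprouting tip cells, was at 126 and 171 CPM in mutants and 23.7 and 20.4 CPM in controls (log2 fold change 2.82, SE 0.20, edgeR adjusted p = 6.37e-06). Its receptor *Aplnr* was at 239 and 225 CPM in mutants and 439 and 339 CPM in controls and fell by 0.69 on the log2 scale (edgeR adjusted p = 0.00524). In all of these genes the mutant libraries lay on one side of the controls. *Vegfa*, the main growth factor of vessels, was at 62.9 and 70.96 CPM in mutants and 37.8 and 28.4 CPM in controls (log2 fold change 1.09, edgeR adjusted p = 0.00327), but did not pass without the called doublets (0.64, adjusted p = 0.0689) or under the *Stab1* and *Gpm6a* gate (0.52, adjusted p = 0.167). *Pdgfb*, which recruits mural cells, rose from 100.1 and 103 CPM in controls to 164 and 166 CPM in mutants (0.76, adjusted p = 0.00196, edgeR). *Flt1*, the decoy VEGF receptor, fell by 0.54 on the log2 scale (edgeR adjusted p = 0.0129; 0.0698 without the second mutant library), and *Kdr*, the main VEGF receptor, was at 713 and 578 CPM in mutants and 887 and 769 CPM in controls (-0.31, adjusted p = 0.118).

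**Figure D4:**
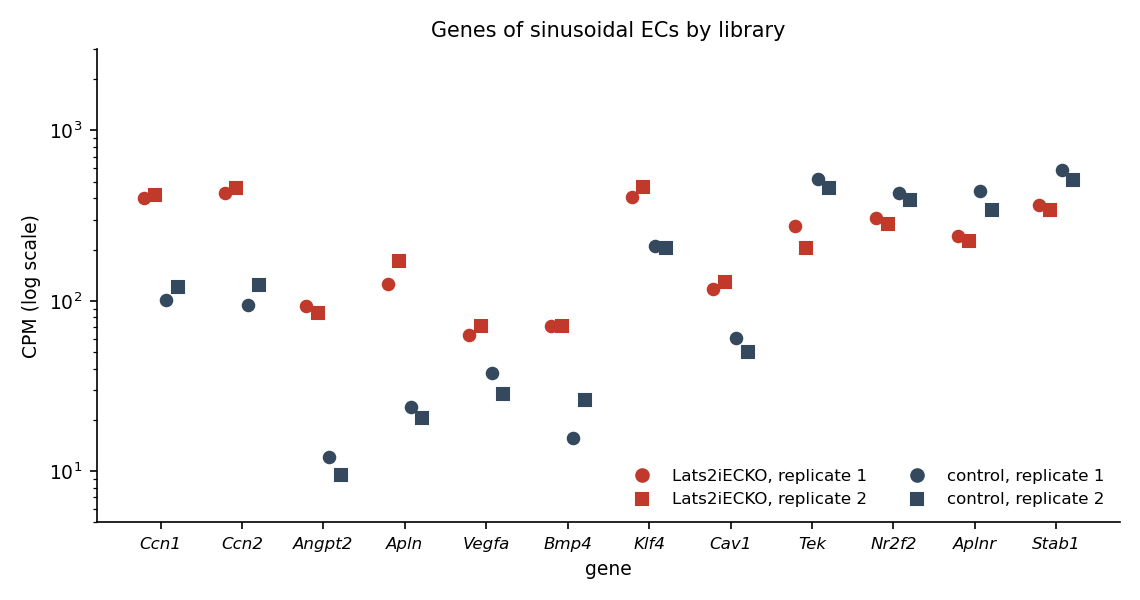
Levels (CPM, log scale) of 12 genes in the sinusoidal ECs of each library, red for Lats2iECKO and dark blue for control, circles for replicate 1 and squares for replicate 2. From *Ccn1* to *Cav1* both mutant libraries lie above both controls, and from *Tek* to *Stab1* below them.

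*Bmp4*, a bone morphogenetic protein that regulates osteogenesis, was at 70.95 and 70.96 CPM in mutants and 15.6 and 26.2 CPM in controls (log2 fold change 1.81, SE 0.24, edgeR adjusted p = 0.000693). *Bmp6*, through which sinusoids of the liver report iron stores, was at 61.8 and 107 CPM in mutants and 42.05 and 37.9 CPM in controls (1.17, adjusted p = 0.00744) and did not pass without the second mutant library (0.67, adjusted p = 0.0627, edgeR). The latent growth factor *Tgfb1* rose by 0.53 on the log2 scale (edgeR adjusted p = 0.0112). Of the 17 tested genes of BMP and TGF-beta signalling 5 rose and none fell, the other 2 being the inhibitory *Smad6* (0.57) and *Smad7* (0.53). In the second fit 4 of 18 rose. *Smad6* did not pass with DESeq2 (adjusted p = 0.164) or, by edgeR, in the second fit (0.58, adjusted p = 0.0537) or without the first control library (0.42, adjusted p = 0.274), nor did *Smad7* with DESeq2 (0.102), without other-lineage barcodes (0.35, edgeR adjusted p = 0.114) or without called doublets (0.30, adjusted p = 0.147). Both also missed the threshold without the first mutant library, and *Smad7* without the first control library. Among 22 factors for blood stem cells and progenitors, 10 were tested, of which only *Bmp4* and *Tgfb1* rose and none fell. *Cxcl12*, the chemokine that holds stem cells in the marrow, was at 427 and 964 CPM in mutants and 430.2 and 668 CPM in controls (log2 fold change 0.40, edgeR adjusted p = 0.354), and *Kitl*, stem cell factor, at 76.7 and 144 CPM and 126 and 121 CPM (-0.07, adjusted p = 0.852). For these 2 genes the ranges of the genotypes overlapped.

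The study singled out 10 secreted factors as raised in the metaphyseal ECs of mutants, a type of EC other than the one examined here. It did so in these libraries, so they are no independent choice. In sinusoidal ECs 6 were tested, and 4 rose: *Angpt2*, *Apln*, *Col18a1* (0.92, edgeR adjusted p = 0.0131) and *Col4a1* (0.58, adjusted p = 0.00751). *Col18a1* did not pass without the second mutant library (0.61, edgeR adjusted p = 0.114) or with the stricter gate (0.74, adjusted p = 0.128). *Thbs1*, thrombospondin 1, was at 118 and 133 CPM in mutants and 77.1 and 159 CPM in controls, and *Fn1*, fibronectin, had a mean of 539 CPM in mutants and 500.2 CPM in controls. In both genes the genotypes overlapped. *Edn1*, endothelin 1, was held by too few cells of either genotype to pass the filter of the genotype test. It was at 77.8 and 88.7 CPM in mutants and 0.779 and 1.46 CPM in controls, where 173 UMIs came from 30 of 183 mutant cells and 6 UMIs from 5 of 562 control cells, and no leukocyte held it. *Adm*, adrenomedullin, was at 21.7 and 22.8 CPM in mutants and 3.11 and 1.09 CPM in controls, likewise below the filter. *Vwf*, von Willebrand factor, also untested, lay the other way, at 10.3 and 17.7 CPM in mutants and 21.0 and 51.7 CPM in controls. *Plau*, untested as well, is not reported here. Of 17 tested genes of the basement membrane 3 rose and 3 fell. *Mmrn1*, multimerin 1, was at 58.4 and 44.8 CPM in mutants and 112 and 109 CPM in controls (log2 fold change -1.06, edgeR adjusted p = 0.00132), and *Npnt*, nephronectin, fell by 0.84 on the log2 scale (adjusted p = 0.00457, edgeR).

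The scavenger receptors *Stab2* and *Mrc1* were gate genes and could not be tested. Of 18 scavenger and uptake receptors 6 could be tested and none rose, while in the second fit 2 of 9 rose. *Stab1* fell in both fits, by 0.59 on the log2 scale (SE 0.12, edgeR adjusted p = 0.00579), which is below the size needed for a call. *Gpm6a* was at 508 and 487 CPM in mutants and 659.5 and 636 CPM in controls, with a log2 fold change of -0.32 (SE 0.11, edgeR adjusted p = 0.0611) that did not pass. It passed without members with other-lineage UMIs (edgeR adjusted p = 0.0271) or with macrophage UMIs (0.0432), with the complexity filter (0.0439) and without a gene filter (0.0158). The gate on *Stab1* and *Gpm6a* chooses cells by this gene and gives no test of it. Among 16 tested lysosomal genes, *Ctsl*, cathepsin L (0.42, adjusted p = 0.038), and *Asah1*, acid ceramidase (0.61, adjusted p = 0.0475), rose in the edgeR test and none fell, with a list median of 0.09. In the second fit 1 of 17 rose, and *Asah1* did not pass (0.61, adjusted p = 0.0607). Without members with other-lineage UMIs their log2 fold changes were about as large, 0.39 and 0.62, and just missed the threshold (edgeR adjusted p = 0.0521 and 0.0534). Neither passed without the first mutant library (0.254 and 0.291) or without the first control library (0.123 and 0.113), nor did *Asah1* without the second (0.122) or with DESeq2 (0.191).

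Transcription factors of venous and sinusoidal ECs moved in both directions, with 3 of 11 tested rising and 2 falling. *Nr2f2*, the venous identity factor COUP-TFII, was at 306 and 284 CPM in mutants and 432 and 389 CPM in controls (-0.42, adjusted p = 0.0276, edgeR). *Klf4*, a factor induced by laminar flow, was at 405 and 467 CPM in mutants and 209 and 204 CPM in controls (log2 fold change 1.14, SE 0.12, edgeR adjusted p = 0.000106). In both genes the genotypes did not overlap, but *Nr2f2* did not pass with DESeq2 (adjusted p = 0.0527) or, by edgeR, without the second mutant library (0.0901), without the first control library (0.183) or with equal cells (0.131). Of 23 tested genes of endothelial identity 4 fell and 1 rose. The fallers were *Tek*, *Nos3*, the endothelial nitric oxide synthase (-1.02, edgeR adjusted p = 0.0341), *Clec14a* (-0.76, adjusted p = 0.00479) and *Mmrn2* (-0.42, adjusted p = 0.0306), while *Sox7*, an endothelial transcription factor, rose (0.89, adjusted p = 0.00349). Under the *Stab1* and *Gpm6a* gate *Nos3* was at 0.12 and *Clec14a* at -0.19 (edgeR adjusted p = 0.219). Without the first mutant library *Nos3* did not pass (-0.68, adjusted p = 0.102), nor did *Mmrn2* without the second (-0.33, adjusted p = 0.169) or without the first control library (-0.40, adjusted p = 0.108).

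Of 14 tested genes for barrier, caveolae and fenestrae 4 rose and none fell, with a median log2 fold change of 0.07. *Cav1*, the main coat protein of caveolae, was at 117 and 128 CPM in mutants and 60.3 and 50.3 CPM in controls (log2 fold change 1.21, SE 0.15, edgeR adjusted p = 0.000357), with *Cavin1* (0.63, adjusted p = 0.00612) and *Ehd4*, an ATPase of the caveolar neck (0.76, adjusted p = 0.00597), also up. With equal cells per library *Ehd4* was at 0.055 (edgeR adjusted p = 0.904) and *Cavin1* at 0.52 (0.0860). Of 13 S100 and annexin genes, which bind calcium and membranes, 12 were tested, 7 rose and none fell, with a median log2 fold change of 0.58. *S100a6* was at 356 and 489 CPM in mutants and 68.5 and 102 CPM in controls (log2 fold change 2.37, SE 0.20, edgeR adjusted p = 2.78e-05), though 5 cells held 58.2% of its mutant UMIs. *S100a11* was at 193 and 261 CPM in mutants and 73.6 and 105 CPM in controls (1.41, adjusted p = 0.000412, edgeR).

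Among 21 genes that mark mesenchymal cells, 12 were tested, and 5 rose and 3 fell (4 and 3 of 16 in the second fit). *Vim*, vimentin, was at 767 and 911 CPM in mutants and 417 and 448 CPM in controls (log2 fold change 1.01, edgeR adjusted p = 0.000318). *Lgals1*, galectin 1, rose by 1.45 on the log2 scale (edgeR adjusted p = 0.00141). The collagens went the other way. *Col1a1*, the chain of type I collagen made by osteoblasts, was at 43.5 and 111 CPM in mutants and 1517 and 1773 CPM in controls (log2 fold change -4.32, edgeR adjusted p = 2.2e-06), but 5 control cells held 77.5% of the control UMIs. Without members with other-lineage UMIs its log2 fold change was -1.37, and that of *Col1a2* went from -3.22 to -0.90 (edgeR adjusted p = 0.0601). Cell-free RNA in the control libraries held 18068 CPM of *Col1a1*, compared with 5007 CPM in mutants. Of 22 targets of SRF with a role in the cytoskeleton 15 were tested, of which 3 rose and 2 fell, with a median log2 fold change of 0.16. *Tpm1*, a tropomyosin, was at 256 and 419 CPM in mutants and 207 and 182 CPM in controls (0.86, adjusted p = 0.00721, edgeR), *Filip1l* rose by 0.86 and *Tagln2* by 0.67 on the log2 scale. With equal cells per library *Tpm1* (0.34, edgeR adjusted p = 0.316) and *Tagln2* (0.23, adjusted p = 0.587) did not pass. *Zyx*, zyxin, was called lower (-1.06, edgeR adjusted p = 0.0165), but 5 control cells held 57.6% of its control UMIs and its log2 fold change was 0.03 without members with other-lineage UMIs. It did not pass without the second control library either (-0.62, edgeR adjusted p = 0.0809).

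Of 13 tested genes of leukocyte adhesion 2 fell, *Podxl*, podocalyxin (-0.81, edgeR adjusted p = 0.0061; 0.372 under the *Stab1* and *Gpm6a* gate), and *Jam2*. Of 10 tested Notch genes *Nrarp*, a Notch feedback inhibitor, rose (0.92, adjusted p = 0.00479, edgeR). Of 14 tested interferon and antigen presentation genes *Irf1* rose (0.67, edgeR adjusted p = 0.00742; 0.0623 without the first control library) and *Gbp4* fell (-0.95, adjusted p = 0.0422; 0.182 without the second mutant library). Of 6 tested genes of iron handling *Bmp6*, *Ftl1*, the ferritin light chain (0.55, edgeR adjusted p = 0.0133), and *Hmox1* (0.54, adjusted p = 0.0411) rose, and in the second fit 2 of 10. *Hmox1* did not pass in 13 alternatives, among them the second fit (0.55, edgeR adjusted p = 0.0582), DESeq2 (adjusted p = 0.188) and, by edgeR, without the first mutant library (0.0774), without the first control library (0.283), without other-lineage barcodes (0.117) and without called doublets (0.279), and *Ftl1* did not without the second mutant library (0.39, edgeR adjusted p = 0.0881). Of 7 tested arterial genes *Fbln5*, fibulin 5, rose (1.29, edgeR adjusted p = 0.00687; 0.153 with DESeq2), and of 7 tested metaphyseal and tip-like genes 4 rose and *Aplnr* fell, with 5 of 9 rising in the second fit. Of 20 cell cycle genes 6 were tested, and the one that rose was *Cdkn1a*, the inhibitor p21 (0.94, edgeR adjusted p = 0.00509).

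Among the 10 genes with the largest rise, not counting the transgene and the genes already given, *Ptx3*, a secreted pentraxin of innate immunity, was at 102 and 137 CPM in mutants and 5.84 and 6.56 CPM in controls (log2 fold change 4.32, SE 0.24, edgeR adjusted p = 1.55e-06). *Fgf23*, the phosphate-lowering hormone known from osteocytes, was at 275 and 197 CPM in mutants and 27.6 and 55.4 CPM in controls (2.54, adjusted p = 0.000111, edgeR), with a mean of 3.14 CPM in the other ECs of mutants and 0.248 CPM in those of controls. Cell-free RNA held 1.18 CPM of it in mutants and 0.244 CPM in controls, so its level in the sinusoidal ECs of each genotype lay above that in the other ECs and in free RNA. *Pkp2*, a desmosomal plakophilin (2.89), *Abca4*, a lipid transporter (2.54), and *Lsmem1* (2.43) rose as well, with edgeR adjusted p of 4.73e-05, 0.000395 and 1.56e-05. The highest log2 fold changes after the transgene included 2 genes of cartilage and joint that few cells carried. *Prg4*, the joint lubricant lubricin, was at 1218 and 858 CPM in mutants and 39.7 and 39.7 CPM in controls (4.76, adjusted p = 3.11e-08, edgeR), and 5 cells held 95.9% of its mutant UMIs. *Cytl1*, a cytokine-like protein of chondrocytes, was at 644 and 996 CPM in mutants and 123 and 30.96 CPM in controls (3.49, adjusted p = 0.000221, edgeR), 5 cells holding 90.2%. Without called doublets *Cytl1* was at 0.56 (adjusted p = 0.0756). Chondrocyte markers as a whole summed to 1330 and 803 CPM in mutants and 961 and 2249 CPM in controls, and their part in these genes was not tested.

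The 10 genes with the largest fall included *Col1a1* and *Col1a2*, given above, and others that stood or faded without members that carried other-lineage UMIs. *Ang*, the ribonuclease angiogenin, was at 14.9 and 6.76 CPM in mutants and 35.4 and 44.8 CPM in controls (log2 fold change -1.91, SE 0.33, edgeR adjusted p = 0.00356). *Grik2*, a kainate receptor subunit, was at 51.5 and 23.7 CPM in mutants and 144 and 107 CPM in controls (-1.73, adjusted p = 0.00188, edgeR), and *Nxpe4* fell by 1.76 on the log2 scale (adjusted p = 0.00136). *Ubash3b*, a phosphatase of blood cells, was at 8.01 and 17.7 CPM in mutants and 107 and 96.1 CPM in controls (-2.84, adjusted p = 6.68e-05, edgeR), and at -1.28 without members with other-lineage UMIs. *Lpin2* and *Fyb*, a platelet and leukocyte adaptor, went from -1.84 and -1.84 to -0.21 and -0.17, and 5 control cells held 71.97% and 72.7% of their control UMIs. *Bglap2*, an osteocalcin gene of osteoblasts, went from -2.27 to 1.19 without called doublets. *Syne1*, a nuclear envelope protein (-1.75, edgeR adjusted p = 0.000531), was at 0.08 under the *Stab1* and *Gpm6a* gate. Of the 90 lower genes 63 and of the 141 higher genes 121 were still called without members with other-lineage UMIs.

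Genes whose UMIs were spread over many control cells fell as well. Chosen after their values were seen, *Enpp6*, a choline-specific phosphodiesterase, was at 176 and 101 CPM in mutants and 481 and 361 CPM in controls (log2 fold change -1.57, SE 0.21, edgeR adjusted p = 0.000419). *Stox2* was at 569.9 and 496 CPM in mutants and 1355 and 1143 CPM in controls (-1.17, adjusted p = 9.89e-05, edgeR). *Sema6a*, a transmembrane semaphorin, was at 401 and 297 CPM in mutants and 787 and 704 CPM in controls (-1.04, adjusted p = 0.0005, edgeR). The genotypes did not overlap in any of the 3. *Cd38*, an enzyme that consumes NAD, was at 103 and 90.4 CPM in mutants and 216 and 197 CPM in controls (-1.05, adjusted p = 0.000357, edgeR). For these 4 genes, 5 control cells held 5.38 to 6.80% of the control UMIs.

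Whether the genotype difference of sinusoidal ECs was unlike that of the other 2159 ECs was tested with the interaction of genotype and cell class in edgeR, with the library as a block. Of 6903 genes, 29 had a log2 fold change more positive by at least 1 in sinusoidal ECs (0.42%) and 13 one more negative (0.188%). At an unadjusted p under 0.05 there were 885. The counts leaned on single libraries, as they were 79 and 41 without the first and 61 and 49 without the second mutant library, and 18 and 15 without the second control library. The other ECs pool arterial, capillary and further types and include sinusoidal-like cells that missed the gate. Markers of these types differed by genotype. In other ECs *Vwf* was at 288 and 318 CPM in mutants and 175 and 162 CPM in controls. *Sema3g* was at 137 and 136 CPM in mutants and 273 and 260 CPM in controls. A changed mix of cell types and a changed level per cell cannot be told apart in this comparison. Among the 13 were 4 that bind leukocytes or chemokines on venules, a grouping made after the values were seen, while *Podxl*, *Jam2* and *Cd99l2* of the adhesion list had no called interaction (edgeR adjusted p = 0.941, 0.152 and 0.903). *Selp*, P-selectin, was at 428 and 436 CPM in mutant and 437 and 502 CPM in control sinusoidal ECs, but at 292 and 335 CPM in mutant and 89.6 and 64.7 CPM in control other ECs. *Sele*, E-selectin, was at 136 and 108 CPM and 166 and 139 CPM in sinusoidal ECs, but at 68.4 and 89.3 CPM in mutant and 26.2 and 12.6 CPM in control other ECs. So both were higher in other ECs of mutants than of controls, while in sinusoidal ECs the log2 fold changes were -0.07 and -0.28 (edgeR adjusted p = 0.738 and 0.206). The differences of the log2 fold changes were -2.16 (SE 0.21, edgeR adjusted p = 0.005) and -2.39 (SE 0.29, adjusted p = 0.0116). *Ackr1*, the chemokine-binding Duffy receptor of venules, rose by 1.5 on the log2 scale in other ECs, with a difference of -1.30 (edgeR adjusted p = 0.0359), and *Icam1*, an integrin ligand, rose by 1.39, with a difference of -1.07 (adjusted p = 0.0118, edgeR). The difference for *Ackr1* did not pass without the first control library (-1.19, adjusted p = 0.0770).

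In the opposite direction, *Edn1* rose more in sinusoidal ECs, with a difference of 4.43 (SE 0.35, edgeR adjusted p = 0.00198), although its level in mutants was higher in the other ECs (240.2 and 231 CPM) than in sinusoidal ECs. In sinusoidal ECs 5 cells held 55.5% of its mutant UMIs, and under the *Stab1* and *Gpm6a* gate the difference was 0.35. *Creb5*, a transcription factor, was at 129 and 66.7 CPM in mutant and 25.7 and 20.03 CPM in control sinusoidal ECs, and at 57.5 and 57.8 CPM and 71.5 and 76.1 CPM in other ECs (difference 2.38, edgeR adjusted p = 0.013). *S100a6* rose in both classes and more in sinusoidal ECs (difference 1.52, edgeR adjusted p = 0.0245). *Igfbp5*, another binding protein of insulin-like growth factors, was at 648 and 442 CPM in mutant and 160.4 and 283 CPM in control sinusoidal ECs and lower in mutant than in control other ECs (difference 3.002, edgeR adjusted p = 0.0109), but 5 cells held 64.3% of its mutant sinusoidal UMIs. *Serpina3g*, a protease inhibitor, did not rise in sinusoidal ECs, at 34.3 and 55.8 CPM in mutants and 52.2 and 53.2 CPM in controls (log2 fold change -0.13, edgeR adjusted p = 0.705). In other ECs it was low, at 3.15 and 2.75 CPM in mutants and 12.1 and 15.4 CPM in controls. For *Ablim3*, an actin-binding protein, and *Serpina3g* the differences were 2.09 and 2.000 (edgeR adjusted p = 0.0454 and 0.0408). With genes chosen by the mean share of cells over both genotypes and classes, at 5% or more, neither passed (2.07 and 1.99, edgeR adjusted p = 0.0501 and 0.0520), nor without the second mutant library (adjusted p = 0.0673 and 0.107), nor did *Ablim3* without the first control library (0.144) and *Serpina3g* without the second control library (0.108) or without called doublets (1.42, 0.260). The other called differences of this and the preceding paragraph passed with that choice of genes, *Edn1* at 4.42 (edgeR adjusted p = 0.00168). *Mctp1* and *Thbs1* were called with more negative differences (-2.72 and -1.86), yet 5 control cells held 89.5% and 74.6% of their control sinusoidal UMIs, and without barcodes with other-lineage UMIs the differences were -0.14 and -1.15 (edgeR adjusted p = 0.913 and 0.203). Without the second control library *Thbs1* did not pass (-1.34, adjusted p = 0.0627). No interaction was called for *Ccn1*, *Ccn2*, *Angpt2*, *Apln*, *Bmp4* or *Klf4*.

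**Figure D5:**
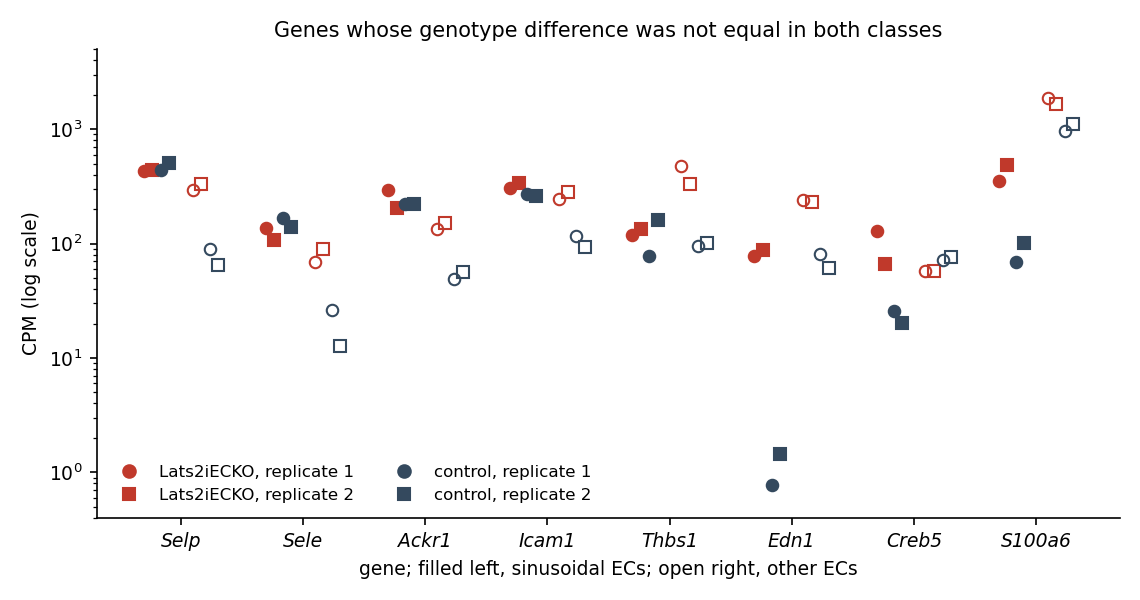
Levels (CPM, log scale) in each library of 8 genes whose genotype difference was called unequal between sinusoidal ECs (filled symbols) and other ECs (open symbols), red for Lats2iECKO and dark blue for control. *Selp*, *Sele*, *Ackr1* and *Icam1* lie apart by genotype in other ECs, with mutants above controls, and nearer together in sinusoidal ECs, while *Edn1* is near 1 CPM in control sinusoidal ECs alone.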

How the data were processed

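Bone marrow stromal cells of 2 Lats2iECKO and 2 control libraries were read with 10x Genomics 3′ chemistry. According to the methods of the study and the processing notes of the submitters, the authors trimmed reads with cutadapt 3.5 and counted UMIs with STARsolo 2.7.10a on GRCm39 with the CreERT2 and mTmG sequences added, over exons and introns, sharing UMIs that matched several genes. The deposited matrices therefore hold expected counts of UMIs as the authors' counting gave them, of which 9.09 to 9.95% were not whole. Barcodes were chosen by the UMI thresholds given above. Single-cell counts are not replicates, so counts were summed per library over sinusoidal ECs, over other ECs and over all ECs, and rounded to whole numbers.

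Genotypes were compared with the quasi-likelihood test of edgeR 4.0.16 (limma 3.58.1, R 4.3.3), TMM scaling and Benjamini-Hochberg adjustment over all tested genes. Each SE given is the size of the log2 fold change divided by the square root of the F statistic of that test, not a standard error that the test itself reports. Genes entered the test if filterByExpr kept them and 20% or more of the cells of 1 genotype held a UMI. The 8 gate genes were left out; genes that met this share in 1 genotype alone were read from a second fit, added after seeing the data, whose filter took the mean share over both genotypes at 10% (5% over the 4 groups of the interaction). The interaction with cell class was fitted with the library as a block. Single values were compared with an exact permutation test in scipy 1.17.1. Only the genotype fit of edgeR was tried on simulated counts, with the same dispersion for every gene. The gates, the share, the interaction and the free RNA subtraction were not. Positions came from the GENCODE vM39 annotation.

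The genes named were the 10 highest and 10 lowest log2 fold changes among called genes of at least 30 CPM whose libraries did not overlap, without predicted, mitochondrial and ribosomal genes, up to 4 tested genes with the largest change per list and genes the study names, the 15 leading genes, up to 5 genes per direction of the interaction, and the gate, marker and target genes. *Ackr1*, *Adm*, *Cd38*, *Crim1*, *Cxcl12*, *Enpp6*, *Flt1*, *Fn1*, *Gapdh*, *Kdr*, *Kitl*, *Lgals1*, *Mmrn2*, *Ptpn14*, *Sema6a*, *Stox2*, *Tgfb1*, *Vgll4*, *Vim* and *Wwtr1* are named in addition, chosen after their values were seen. Some genes that this rule names are not reported here. Members, gene lists and tests were chosen with earlier results of these data known. Alternatives covered DESeq2 1.42.0, scaling, filters, gates, thinning, libraries left out and subtraction of free RNA. Removal of barcodes with other-lineage UMIs was added after seeing the data. Intervals cover counting error only.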

Additional observations from a re-analysis of the deposited data

Results flagged for a closer look

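The genotype difference was unlike in sinusoidal and other ECs, by the interaction test of edgeR over 2 libraries per genotype, for the named genes that follow. A changed mix of cell types within the other ECs cannot be told apart from a changed level per cell. The log2 fold change was more positive in sinusoidal ECs by 4.43 for *Edn1*, 3.002 for *Igfbp5*, 2.38 for *Creb5*, 2.09 for *Ablim3*, 2.0004 for *Serpina3g* and 1.52 for *S100a6*. It was more negative in sinusoidal ECs by a difference of -2.72 for *Mctp1*, -2.66 for *Fhl1*, -2.39 for *Sele*, -2.16 for *Selp*, -1.86 for *Thbs1*, -1.30 for *Ackr1* and -1.07 for *Icam1*. The difference of *Edn1* was 0.35 under the *Stab1* and *Gpm6a* gate, and 5 cells held 55.5% of its mutant sinusoidal UMIs. With the gene filter that ignores genotype, *Ablim3* (adjusted p = 0.0501), *Serpina3g* (0.0520) and *Fhl1* (0.0501) did not pass by edgeR. Without barcodes with other-lineage UMIs the differences of *Mctp1*, *Fhl1* and *Thbs1* did not pass, at -0.14, -1.17 and -1.15.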

How the results depend on the processing

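Of 141 genes called higher and 90 called lower, 75 and 41 kept an edgeR adjusted p of at most 0.05 in every alternative but DESeq2, which called 99 and 65. Counts of higher and lower genes became 395 and 431 without a gene filter and 260 and 146 with the gate on *Stab1* and *Gpm6a*, and 138 genes were lower with equal cells per library. Under the *Stab1* and *Gpm6a* gate 82 of the 141 higher and 39 of the 90 lower genes were still called. Of the 141 and 90, 127 and 82 were tested there, and 9 of the lower genes had the opposite sign. For the interaction (29 and 13 genes), the replicate block gave 66 and 30, the gate on *Stab1* and *Gpm6a* 91 and 20, removal of other-lineage barcodes 63 more positive genes, and more negative genes numbered 23 without *Mrc1* in the gate and 8 with the stricter gate. With 1 library left out, a lone library being assumed to vary like the others, higher genes numbered 126 to 190, lower genes 84 to 144 (144 without the first mutant library), and the interaction gave 18 to 79 and 15 to 49 genes, with 79 and 41 without the first and 61 and 49 without the second mutant library. The share ratio was then 2.21 to 2.28, and the log2 fold change of *Lats2* -0.23 to 0.05 (0.0499, adjusted p = 0.888, without the first mutant library).

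The genotypes share replicate numbers, but deviations of same-numbered libraries correlated at r = 0.092 over genes with only 2 pairs, so the numbers were not taken to pair libraries. The replicate block gave 142 higher and 92 lower genes, and -0.07 for *Lats2* (adjusted p = 0.794), and with it *Gpm6a* passed (-0.32, adjusted p = 0.0391). Signs turned with the gate on *Stab1* and *Gpm6a* for *Syne1* (0.082), *Ptpn14* (0.50), *Zyx* (0.52), *Mrtfb* (0.042), *Nos3* (0.12), *Ctsl* (-0.11), *Hmox1* (-0.26) and the interactions of *Mctp1* (3.07), *Fhl1* (0.72) and *Thbs1* (0.045). *Bglap2* turned to 1.19 without called doublets. *Zyx* turned to 0.023 with the complexity filter, 0.36 with thinned gates, 0.00715 without macrophage UMIs and 0.025 without other-lineage UMIs. With equal cells per library, 83 each, *Aplnr* (-0.70), *Stab1* (-0.54), *Bmp6* (1.08), *Tgfb1* (0.53), *Podxl* (-0.62), *Irf1* (0.70), *Nrarp* (0.89), *Fbln5* (1.06) and *Ftl1* (0.30) no longer passed by edgeR, most with log2 fold changes near those reported. Of 187 calls of named genes lost under single alternatives, 110 kept 75% or more of the reported log2 fold change. The cause of these changes was not tested. DESeq2 gave no adjusted p for Cre-ERT2, *Pkp2*, *Abca4*, *Ang* and *Nos3*. By the chosen filter of 20% of cells, 6550 of 53703 features were tested, and a gene below it was not.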

Other observations

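Of the genes called in sinusoidal ECs, 17 of the 141 higher and 9 of the 90 lower were predicted genes, mitochondrial genes or ribosomal protein copies, which are not named.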
